A study of Mus musculus with 16 samples.

Results

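The genes described here are 51 genes of ribosome biogenesis, chosen by symbol from 18990 genes in the deposited table. Each of the 51 had 1 row, and all of them lay above the level required for testing. They cover RNA polymerase I and its factors (6 genes), the box C/D (4) and box H/ACA (3) small nucleolar ribonucleoproteins (snoRNPs), assembly of the small (16) and the large (15) ribosomal subunit, nucleolar proteins with several functions (5), and polyamine synthesis (2). Their level was measured by bulk sequencing of rRNA-depleted RNA in 16 libraries of primary, wild-type BL6 mouse embryonic fibroblasts (MEFs) undergoing reprogramming at passage 2. Cells in every group, controls included, carried the inducible tet-STEMCCA lentivirus with Oct4, Sox2, Klf4 and c-Myc (OSKM) and an rtTA lentivirus. They were transfected with pooled siRNAs a day before induction and were then kept in doxycycline, chiron (a GSK3 inhibitor), Alk5i (a TGF-β inhibitor), ascorbic acid and LIF. The siRNA was non-targeting (nt control) or directed against *Wdr5*, *Brca1* or *Bard1* (siWdr5, siBrca1, siBard1), RNA was taken at day 3 and day 6, and each of the 8 groups holds 2 libraries from independent experiments. Reads of introduced and endogenous *Myc* were counted together, and a culture holds cells at different stages, and in such bulk samples fewer cells of a type and less RNA per cell cannot be told apart.

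Ribosomes are made in the nucleolus. RNA polymerase I transcribes the ribosomal DNA into a long precursor, which small nucleolar RNAs (snoRNAs) in box C/D and box H/ACA particles guide to be methylated and pseudouridylated, and which assembly factors cleave, fold and load with ribosomal proteins until the small and the large subunit are exported. Production of ribosomes follows growth and proliferation, and many of the genes involved are targets of the transcription factor MYC, which is also a member of the reprogramming cassette.

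Some of these genes serve the pathway in a second way, since snoRNAs are encoded within them. In the GENCODE vM21 annotation (mm10), 9 of the 51 genes (17.6%) enclosed annotated snoRNAs on their own strand, 24 in all, against 250 of 14599 protein-coding genes of the table (1.71%). *Nop56* holds 5 of them, *Nop58* 4, *Gnl3*, *Ncl* and *Wdr43* 3 each, *Ppan* and *Tsr1* 2 each, and *Dkc1* and *Odc1* 1 each. A C box (TGATGA) near the start and a D box (CTGA) near the end, the motifs at which the box C/D proteins assemble, were found in 9 of the 24. The 4 shown here lie in introns of genes whose values are given below, from the 5′ to the 3′ end, with the C and the D box in capitals. *Snord82* lies in *Ncl* (chr1:86356261-86356330, minus strand), *Snord110* in *Nop56* (chr2:130275506-130275573, plus strand), *Snord11* in *Nop58* (chr1:59704790-59704873, plus strand) and *Snord92* in *Wdr43* (chr17:71631281-71631365, plus strand).
Snord82: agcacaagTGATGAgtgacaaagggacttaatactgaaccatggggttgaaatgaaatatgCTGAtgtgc
Snord110: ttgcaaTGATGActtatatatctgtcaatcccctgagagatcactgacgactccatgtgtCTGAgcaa
Snord11: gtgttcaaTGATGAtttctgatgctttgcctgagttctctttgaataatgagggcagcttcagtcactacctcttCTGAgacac
Snord92: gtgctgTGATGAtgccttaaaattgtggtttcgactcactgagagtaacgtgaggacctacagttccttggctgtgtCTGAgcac

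The E-box CACGTG, the letters that MYC and MAX and other factors of their family recognise, was searched in the promoter windows of RefSeq (GRCm38.p6), which run from 250 bases before to 50 bases after a start site. Since it is its own reverse complement, both strands were covered. A window was found for 43 of the 51 genes, and 10 of these (23.3%) held the motif, against 8.09% of 27025 genes with a window and 11.9% of the 10195 among them that were tested here. The 10 are *Imp4*, *Ltv1*, *Mybbp1a*, *Nop2*, *Pes1*, *Pno1*, *Tsr1*, *Utp18*, *Utp20* and *Wdr43*. In 3 of them the motif lies before the start site, and these stretches are shown with the motif in capitals, *Imp4* (chr1:34439661-34439760, plus strand), *Nop2* (chr6:125131776-125131875, plus strand) and *Utp18* (chr11:93885767-93885833, minus strand). A match describes the letters only and is no evidence of binding.
Imp4: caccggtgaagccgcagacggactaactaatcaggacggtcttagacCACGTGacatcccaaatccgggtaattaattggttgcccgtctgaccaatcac
Nop2: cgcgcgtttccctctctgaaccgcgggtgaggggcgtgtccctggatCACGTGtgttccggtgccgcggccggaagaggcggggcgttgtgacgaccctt
Utp18: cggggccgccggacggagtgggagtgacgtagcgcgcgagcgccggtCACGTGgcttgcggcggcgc

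In the nt control at day 3 the 51 genes together held 10460 and 10530 CPM (read counts scaled to the library's size, taken back from the deposited log2 values), 1.03% and 1.06% of the reads. Per kilobase of coding sequence, the median gene stood at 86.1 CPM and the range was 22.6 to 1647. Nucleophosmin (*Npm1*, 1647 CPM per kb) and nucleolin (*Ncl*, 779), the abundant structural proteins of the nucleolus, led the order. They were followed by the H/ACA protein gene *Nhp2* (317) and the spermidine synthase gene *Srm* (307). At the low end were *Heatr1* (26.4), *Rrp12* (25.2) and *Noc3l* (22.6), all of them factors of subunit assembly. A single gene had 188 to 44740 reads in a library, with a median of 1445.

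The libraries held 11169738 to 26832534 reads in the table. Each target was lower at day 3 where its siRNA was used. *Wdr5* had 132 and 130.4 CPM in the nt control and 50.6 and 55.3 CPM in siWdr5, *Brca1* had 82.4 and 78.0 against 37.5 and 19.4 CPM in siBrca1, and *Bard1* had 30.5 and 29.1 against 18.0 and 20.8 CPM in siBard1. *Wdr5* also fell in siBrca1 (−0.87) and siBard1 (−0.48), *Brca1* in siWdr5 (−0.86), and *Bard1* in siWdr5 (−1.03) and siBrca1 (−1.38; log2 fold changes). At day 6 no target passed the test in its own knockdown (−0.27, 0.01 and 0.11 for *Wdr5*, *Brca1* and *Bard1*). The library of siBrca1 replicate 2 at day 3 stood apart, with 832 CPM over 16 cell division genes against 1511 CPM in replicate 1, and with 31.9 against 5.37 CPM of *Trib3*, a gene of the integrated stress response. The main values for siBrca1 at day 3 are given with and without it, and the counts by role include it.

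At day 3 genes of ribosome biogenesis were called lower than in the nt control in each knockdown, in numbers from 24 to 49 of the 51, and none was called higher. The log2 fold change is the difference of group means of the deposited log2 CPM values, and a gene was called at an adjusted p below 0.05 in limma, over 14028 genes. In siBrca1, 49 of 51 genes fell, where 21.8% of all genes tested fell. In siWdr5 33 fell (16.8% of all genes) and in siBard1 24 (5.87%). The median log2 fold change of the 51 genes was −0.74 in siBrca1, −0.42 in siWdr5 and −0.40 in siBard1, whereas that of all genes tested lay between −0.04 and 0.00. A fold change over 2 besides the adjusted p was reached by 5 genes in siBrca1 (0 without its replicate 2) and by none in siWdr5 or siBard1. The highest log2 fold change of any of the 51 genes was −0.08 for siWdr5, −0.02 for siBrca1 and 0.00 for siBard1. The share of all genes tested that changed more than 2-fold is not given here. The 3 comparisons share the same 2 control libraries. With 2 libraries a group, from independent experiments, the p-values rest on the spread between libraries within groups. That spread was pooled over all groups of day 3 and moderated across the genes tested.

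Both knockdown libraries lay below both nt control libraries for 50 of the 51 genes in siWdr5 (all but *Bysl*), for 50 in siBrca1 (all but *Gnl3l*) and for 47 in siBard1 (all but *Gnl3*, *Gnl3l*, *Utp20* and *Wdr75*). Over all genes tested this was so for 39.6% in siWdr5, 38.3% in siBrca1 and 33.7% in siBard1. Relative to the mean of the controls, the median of the 51 genes was −0.46 and −0.34 in the siWdr5 libraries, −0.60 and −0.85 in siBrca1 and −0.31 and −0.48 in siBard1. The 51 genes summed to 7624 and 8306.5 CPM in siWdr5, 6930.5 and 5815 CPM in siBrca1, and 8457 and 8088 CPM in siBard1. Their share of reads was lowest, at 0.551%, in siBrca1 replicate 2. Without that library the median of the 51 genes in siBrca1 was −0.60, against −0.01 over all genes tested.

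**Figure D1:**
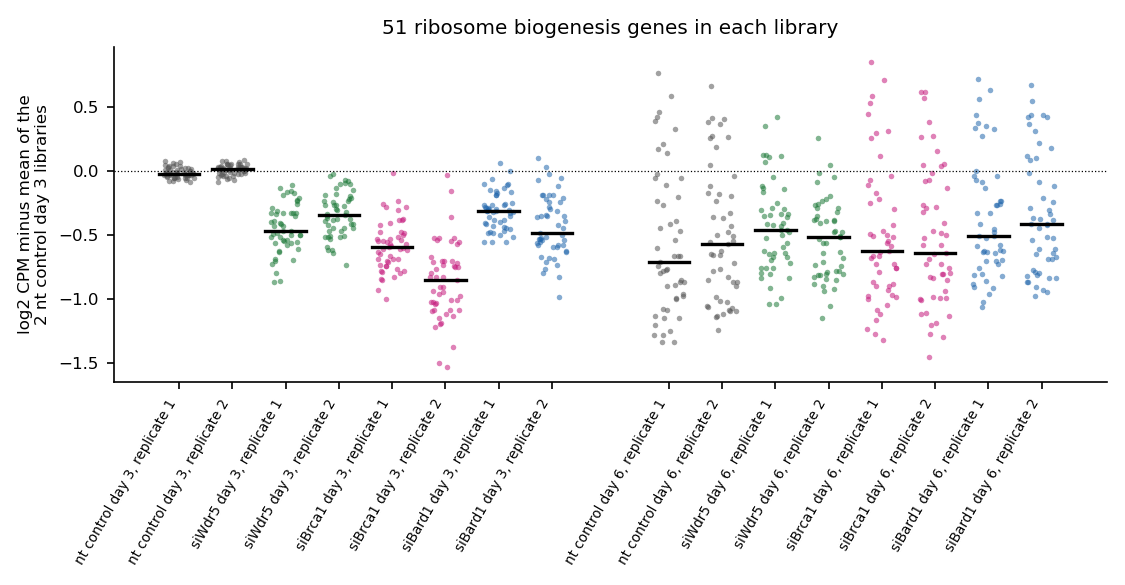
The 51 genes in each of the 16 libraries, as log2 CPM minus the mean of the 2 nt control libraries of day 3. Each point is a gene and each bar the median of a library; at day 3 the 6 knockdown medians lie between −0.31 and −0.85.

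The calls did not rest equally on the libraries. In siBrca1 45 of the 49 called genes were called under each of 14 alternative settings (all those tried but the added fold change limit), in siWdr5 7 of 33 (*Dkc1*, *Ebna1bp2*, *Emg1*, *Nat10*, *Nip7*, *Noc2l* and *Tcof1*), and in siBard1 only *Noc2l* of 24. Leaving out a library left a group with 1 sample, whose spread was then taken from the other groups. For siWdr5 the count was 13 without nt control replicate 1, 15 without nt control replicate 2, 9 without siWdr5 replicate 1 and 20 without siWdr5 replicate 2. For siBard1 it was 2 and 1 without nt control replicate 1 and 2, 1 without siBard1 replicate 2 and 16 without siBard1 replicate 1. It was also 1 when the moderation had no trend and 7 without a filter on low values.

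**Figure D2:**
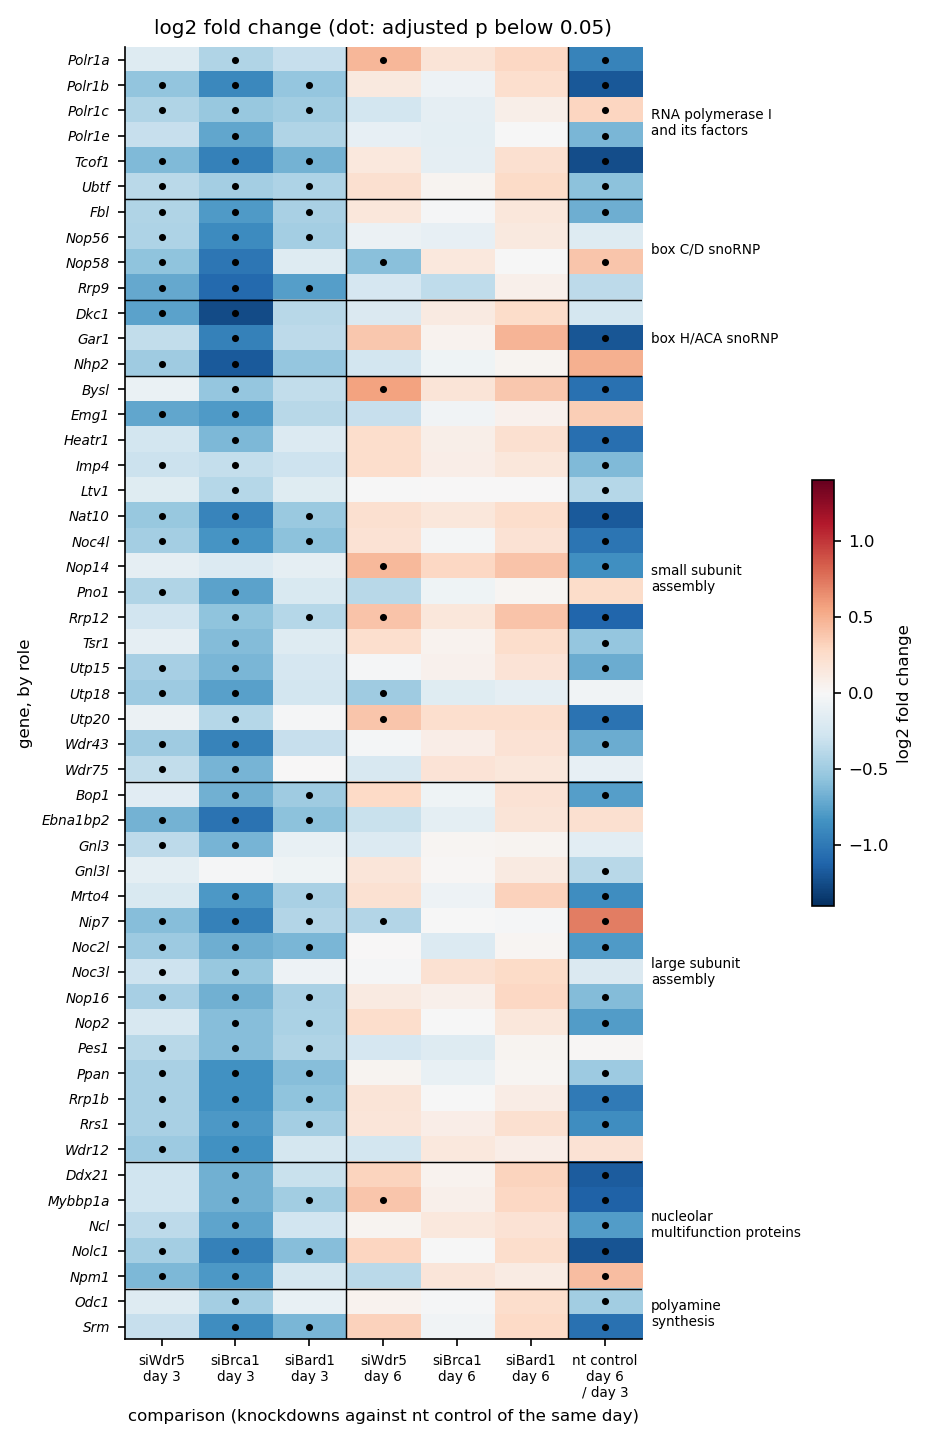
Heat map of the log2 fold change of each of the 51 genes (rows, grouped by role) in 7 comparisons (columns), from blue (lower) to red (higher); a dot marks an adjusted p below 0.05. The siBrca1 column at day 3 carries 49 dots, and the siBrca1 and siBard1 columns at day 6 carry none.

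RNA polymerase I and its factors fell in 4 (siWdr5), 6 (siBrca1) and 4 (siBard1) of 6 genes at day 3. *Polr1b*, the second largest subunit and part of the catalytic centre, had 117 and 111 CPM in the nt control, 76.3 and 79.6 CPM in siWdr5, 70.7 and 52.5 CPM in siBrca1 and 80.7 and 75.4 CPM in siBard1. Every knockdown library was below both controls, and the changes were −0.55 (adjusted p = 0.00533) in siWdr5, −0.90 (adjusted p = 0.000102) in siBrca1 and −0.55 (adjusted p = 0.014) in siBard1. *Tcof1* encodes treacle, a nucleolar partner of the polymerase and of UBF that is mutated in Treacher Collins syndrome. It had 214 and 237 CPM in the nt control, 146 and 147 CPM in siWdr5, 135 and 102 CPM in siBrca1 and 153 and 133 CPM in siBard1. The groups did not overlap with the controls, and the changes were −0.62 (adjusted p = 0.0027) in siWdr5, −0.94 (adjusted p = 8.19e-05) in siBrca1 and −0.66 (adjusted p = 0.00581) in siBard1.

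*Ubtf*, the gene of the upstream binding factor UBF that keeps ribosomal DNA open for transcription, had 216 and 229 CPM in the nt control, 169.5 and 174 CPM in siWdr5, 166 and 154 CPM in siBrca1 and 179 and 151 CPM in siBard1. It fell by less, with −0.37 (adjusted p = 0.0158) in siWdr5, −0.48 (adjusted p = 0.00252) in siBrca1 and −0.44 (adjusted p = 0.0174) in siBard1. *Polr1a*, the largest subunit, had 189 and 192 CPM in the nt control, 165 and 171 CPM in siWdr5, 157 and 129.6 CPM in siBrca1 and 160.2 and 146 CPM in siBard1. All knockdown libraries were below the controls, and the change passed the test in siBrca1 (−0.42, adjusted p = 0.00703), while the values were −0.18 (adjusted p = 0.221) in siWdr5 and −0.32 (adjusted p = 0.0676) in siBard1. *Polr1c*, a subunit shared with RNA polymerase III, changed by −0.42, −0.53 and −0.48 in siWdr5, siBrca1 and siBard1 and was called in all 3 comparisons. *Polr1e* was called in siBrca1 (−0.73, adjusted p = 0.000703), with −0.32 (adjusted p = 0.0811) in siWdr5 and −0.42 (adjusted p = 0.0554) in siBard1.

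All 4 box C/D genes fell in siWdr5 and in siBrca1, and 3 of 4 in siBard1. Fibrillarin (*Fbl*), the methyltransferase of the particle, had 99.5 and 103 CPM in the nt control, 80.2 and 71.3 CPM in siWdr5, 69.4 and 49.7 CPM in siBrca1 and 79.1 and 69.7 CPM in siBard1. Its libraries did not overlap with the controls, and the changes were −0.42 (adjusted p = 0.0326) in siWdr5, −0.79 (adjusted p = 0.00051) in siBrca1 and −0.45 (adjusted p = 0.0491) in siBard1. *Nop56* and *Nop58* encode the pair of core proteins that hold the RNA. *Nop56* had 279 and 293 CPM in the nt control, 203 and 221 CPM in siWdr5, 171 and 141 CPM in siBrca1 and 215 and 197 CPM in siBard1, and its changes were −0.43 (adjusted p = 0.0101) in siWdr5, −0.88 (adjusted p = 4.97e-05) in siBrca1 and −0.47 (adjusted p = 0.0154) in siBard1. *Nop58* had 207 and 203 CPM in the nt control, 124 and 156 CPM in siWdr5, 108 and 95.8 CPM in siBrca1 and 169 and 195 CPM in siBard1. Here siBard1 replicate 2 came close to the controls, and the changes were −0.56 (adjusted p = 0.00378) in siWdr5, −1.01 (adjusted p = 3.34e-05) in siBrca1 and −0.18 (adjusted p = 0.356) in siBard1.

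*Rrp9*, a protein of the U3 particle that guides the early cleavages, had 119 and 128 CPM in the nt control, 76.5 and 74.4 CPM in siWdr5, 71.2 and 47.6 CPM in siBrca1 and 84.0 and 62.5 CPM in siBard1. It was among the largest falls in each knockdown, with −0.71 (adjusted p = 0.00546) in siWdr5, −1.09 (adjusted p = 0.00018) in siBrca1 and −0.77 (adjusted p = 0.00969) in siBard1. In siBard1 its adjusted p over the alternatives ran from 0.00097 to 0.136, and in siBrca1 from 8.07e-10 to 0.00867.

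The box H/ACA genes fell in 2 of 3 (siWdr5), 3 of 3 (siBrca1) and 0 of 3 (siBard1) genes, the last with 3 of 3 at an unadjusted p below 0.05 and no call by limma. *Dkc1* (chrX:75095854-75109777, plus strand) encodes the pseudouridine synthase dyskerin, which also belongs to telomerase. It had 163 and 150.1 CPM in the nt control, 86.2 and 100.7 CPM in siWdr5, 78.4 and 55.4 CPM in siBrca1 and 116 and 123 CPM in siBard1. The siBrca1 libraries were the lowest and those of siBard1 the nearest to the controls. *Dkc1* was the largest fall of the 51 genes in siWdr5 (−0.75, SE 0.14, adjusted p = 0.00148) and in siBrca1 (−1.25, SE 0.14, adjusted p = 2.15e-05), and had −0.39 (adjusted p = 0.0854) in siBard1. Without siBrca1 replicate 2, the siBrca1 changes were −0.999 for *Dkc1*, −0.82 for *Nhp2*, −0.80 for *Rrp9*, −0.93 for *Nop58* and −0.85 for *Ebna1bp2*. *Nhp2*, a core protein of the same particle, had 147 and 144 CPM in the nt control, 99.9 and 105 CPM in siWdr5, 82.1 and 50.4 CPM in siBrca1 and 110.3 and 90.3 CPM in siBard1. It changed by −0.50 (adjusted p = 0.0373) in siWdr5, −1.18 (adjusted p = 0.000128) in siBrca1 and −0.54 (adjusted p = 0.0514) in siBard1. *Gar1*, the remaining core protein, was the least abundant of the 51 genes by CPM, at 34.6 and 36.9 CPM in the nt control, and was called in siBrca1 (−0.95, adjusted p = 0.00022), with −0.34 (adjusted p = 0.0948) in siWdr5 and −0.37 (adjusted p = 0.114) in siBard1.

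**Figure D3:**
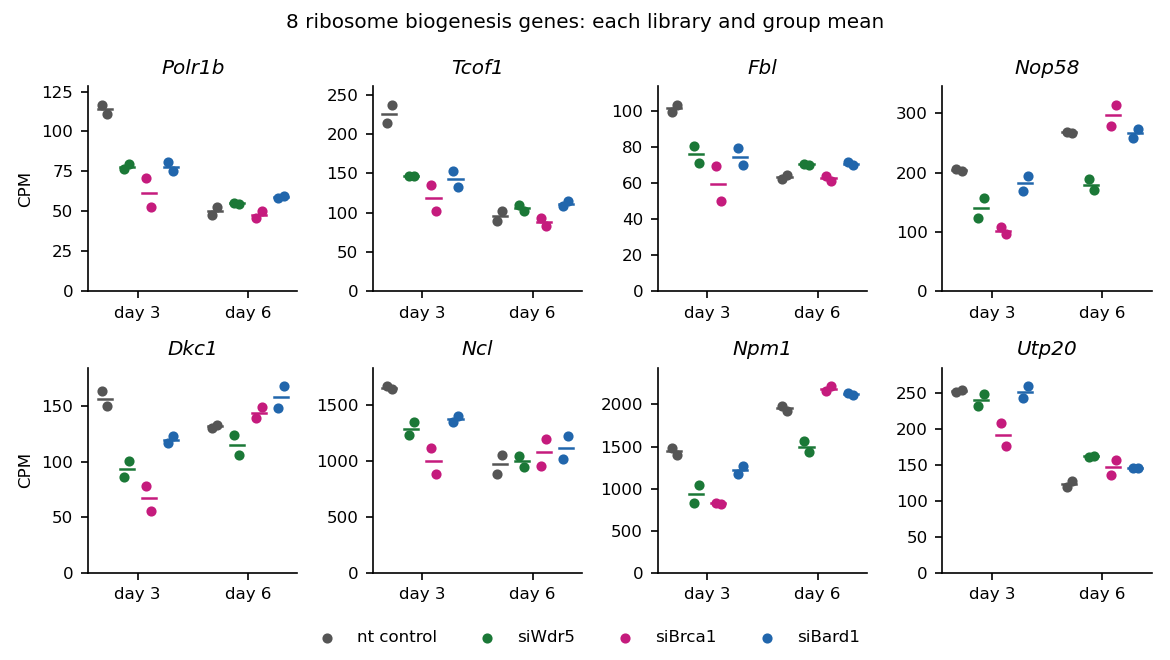
CPM of 8 genes (one panel each, axis from 0) in every library, by group and day; points are libraries and short lines the mean of the 2 libraries of a group. At day 3 the nt control libraries are the highest in 7 of the 8 panels; in the *Utp20* panel siBard1 replicate 2 (259 CPM) exceeds both.

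Of the 16 genes of small subunit assembly, 9 fell in siWdr5, 15 in siBrca1 and 3 in siBard1 (*Nat10*, *Noc4l* and *Rrp12*). *Heatr1*, a component of the complex that first binds the precursor, had 167 and 173 CPM in the nt control, 135 and 150.3 CPM in siWdr5, 117 and 102 CPM in siBrca1 and 149 and 149 CPM in siBard1. It was called in siBrca1 (−0.63, adjusted p = 0.000291), and had −0.25 (adjusted p = 0.0755) in siWdr5 and −0.19 (adjusted p = 0.242) in siBard1. *Utp20*, a very long scaffold protein of the processome, had 251 and 254 CPM in the nt control, 231 and 248 CPM in siWdr5, 208 and 176 CPM in siBrca1 and 242 and 259 CPM in siBard1. It fell in siBrca1 (−0.40, adjusted p = 0.00758), and siBard1 overlapped with the controls (−0.01, adjusted p = 0.956). *Emg1*, a methyltransferase of 18S rRNA, had 103 and 104 CPM in the nt control, 56.8 and 68.8 CPM in siWdr5, 66.0 and 53.9 CPM in siBrca1 and 84.9 and 74.2 CPM in siBard1. It changed by −0.73 (adjusted p = 0.000876) in siWdr5, −0.79 (adjusted p = 0.000247) in siBrca1 and −0.38 (adjusted p = 0.0608) in siBard1.

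*Nat10*, the enzyme that acetylates 18S rRNA, fell in every knockdown at day 3 (−0.53, −0.93 and −0.52, in the order siWdr5, siBrca1, siBard1). *Nop14* was the only gene of small subunit assembly not called in siBrca1, with 69.8 and 71.7 CPM in the nt control, 60.1 and 63.5 CPM in siBrca1 and a change of −0.19 (adjusted p = 0.129). Of the 10 genes with an E-box in the window, *Imp4*, *Ltv1* and *Utp20* had the smallest changes in siBrca1 (−0.33, −0.40 and −0.40) and *Wdr43* the largest (−0.93). Counting without strand would mix reads of overlapping genes for *Tsr1*, of whose exons 32.3% overlap with *Srr* on the opposite strand, and for *Bysl* (9.37% with *Ccnd3*). Whether reads were counted by strand is not given in the sources used here.

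Among the 15 genes of large subunit assembly, 11 fell in siWdr5, 14 in siBrca1 and 11 in siBard1. *Pes1*, *Bop1* and *Wdr12* encode the PeBoW complex, which is needed to process a large subunit precursor. *Pes1* had 144 and 149.6 CPM in the nt control, 109 and 116 CPM in siWdr5, 106 and 89.8 CPM in siBrca1 and 118 and 102 CPM in siBard1, below the controls in every knockdown library, and changed by −0.38 (adjusted p = 0.0184) in siWdr5, −0.59 (adjusted p = 0.000822) in siBrca1 and −0.42 (adjusted p = 0.0265) in siBard1. *Bop1* had 124 and 132 CPM in the nt control, 112 and 117 CPM in siWdr5, 96.4 and 66.3 CPM in siBrca1 and 103 and 79.7 CPM in siBard1. It was not called in siWdr5 (−0.16, adjusted p = 0.456), and changed by −0.68 (adjusted p = 0.00298) in siBrca1 and −0.50 (adjusted p = 0.0486) in siBard1. *Wdr12* was called in siWdr5 (−0.51, adjusted p = 0.00543) and siBrca1 (−0.85, adjusted p = 9.04e-05), with −0.24 (adjusted p = 0.183) in siBard1. The siWdr5 and siBard1 values of these genes were not called different from each other. The difference (siWdr5 minus siBard1) was 0.34 (adjusted p = 0.191) for *Bop1* and −0.26 (adjusted p = 0.184) for *Wdr12*.

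*Ebna1bp2*, a nucleolar assembly factor, had 143 and 159 CPM in the nt control, 92.5 and 98.6 CPM in siWdr5, 83.5 and 64.8 CPM in siBrca1 and 108 and 94.9 CPM in siBard1. Its fall was among the largest in siWdr5 (−0.66, adjusted p = 0.00157) and siBrca1 (−1.04, adjusted p = 3.47e-05), and it was called in siBard1 (−0.58, adjusted p = 0.0103). *Noc2l*, which accompanies early large subunit particles, had 201 and 206 CPM in the nt control, 145 and 141 CPM in siWdr5, 134 and 119.8 CPM in siBrca1 and 146 and 117 CPM in siBard1. In siBard1 its change of −0.64 (SE 0.12, adjusted p = 0.00342) was called under each of the 14 alternatives other than the fold change limit, with an adjusted p of at most 0.0490. *Ppan*, a factor of the same pathway, changed by −0.46, −0.85 and −0.60. *Gnl3l*, a nucleolar GTPase related to nucleostemin (*Gnl3*), was not called in any knockdown. It had 127 and 116 CPM in the nt control, 108 and 113 CPM in siWdr5, 119.8 and 119 CPM in siBrca1 and 126 and 106 CPM in siBard1, and its siBrca1 libraries lay within the range of the controls, whereas *Gnl3* fell in siBrca1 (−0.65, adjusted p = 0.000339). *Noc2l* shares 20.9% of its exon bases with *Samd11* on the opposite strand.

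The 5 nucleolar proteins with several functions fell in 3 (siWdr5), 5 (siBrca1) and 2 (siBard1) genes. *Ncl* had 1663 and 1641 CPM in the nt control, 1227 and 1346 CPM in siWdr5, 1112 and 884 CPM in siBrca1 and 1346 and 1396 CPM in siBard1. All knockdown libraries were lower than the controls, with changes of −0.36 (adjusted p = 0.0478) in siWdr5, −0.74 (adjusted p = 0.000513) in siBrca1 and −0.27 (adjusted p = 0.185) in siBard1. *Npm1*, a chaperone of pre-ribosomes, had 1483 and 1402 CPM in the nt control, 831 and 1044 CPM in siWdr5, 835 and 812 CPM in siBrca1 and 1176 and 1264 CPM in siBard1. It changed by −0.63 (adjusted p = 0.00226) in siWdr5, −0.81 (adjusted p = 0.00022) in siBrca1 and −0.24 (adjusted p = 0.22) in siBard1. *Nolc1*, a chaperone of snoRNPs, fell in every knockdown (−0.48, −0.95 and −0.60). The RNA helicase gene *Ddx21* was called in siBrca1 (−0.68, adjusted p = 0.000341), with −0.28 (adjusted p = 0.0747) in siWdr5 and −0.31 (adjusted p = 0.0853) in siBard1. *Npm1* has 7 annotated near copies, 5 of them with a row in the table, and in all 11 of the 51 genes have such copies (at least 90% identical over 30% of the transcript), so the split of their reads is uncertain. *Odc1* has the most, 11 copies, of which 2 are in the table.

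In polyamine synthesis, *Srm* had 272 and 284 CPM in the nt control, 221 and 222 CPM in siWdr5, 183 and 127 CPM in siBrca1 and 204 and 157 CPM in siBard1. It fell in siBrca1 (−0.87, adjusted p = 0.000481) and siBard1 (−0.64, adjusted p = 0.0163), and had −0.33 (adjusted p = 0.117) in siWdr5. Ornithine decarboxylase (*Odc1*), the first enzyme of the pathway and a textbook MYC target, had 263 and 263 CPM in the nt control, 219.6 and 245 CPM in siWdr5, 203 and 177 CPM in siBrca1 and 263 and 228 CPM in siBard1. It was called in siBrca1 (−0.47, adjusted p = 0.00336), with −0.18 (adjusted p = 0.226) in siWdr5 and −0.11 (adjusted p = 0.556) in siBard1, and siBard1 replicate 1 was close to the controls. Spermine synthase (*Sms*) fell from 29.8 and 28.2 CPM to 15.7 and 16.2 CPM in siWdr5 (−0.86) and 14.4 and 11.0 CPM in siBrca1 (−1.20). It had 18.9 and 25.2 CPM in siBard1 (−0.41, adjusted p = 0.11).

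The knockdowns were then compared directly at day 3. Between siBrca1 and siBard1, 24 genes were lower in siBrca1 and none higher (median −0.36), where 8.33% of all genes tested were lower. Between siBrca1 and siWdr5, 18 were lower in siBrca1 and none higher (median −0.35, background 5.47%). Between siWdr5 and siBard1 none was called by limma or by limma-voom, 9 had an unadjusted p below 0.05, and the changes ran from −0.39 to 0.34 (median 0.02), where 3.78% of all genes were called lower in siWdr5. *Dkc1* (−0.86, adjusted p = 0.0042), *Nop58* (−0.84, adjusted p = 0.00373) and *Wdr75* (−0.65, adjusted p = 0.00524) differed most between siBrca1 and siBard1. *Nhp2* (−0.67, adjusted p = 0.0186), *Gar1* (−0.61, adjusted p = 0.0158) and *Mrto4* (−0.60, adjusted p = 0.00901) did so between siBrca1 and siWdr5. All 3 box H/ACA genes were lower in siBrca1 than in either other knockdown.

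These differences depended on single libraries. Without siBrca1 replicate 2 fewer genes were called in both comparisons. The median difference was then −0.14 against siBard1 and −0.23 against siWdr5, where that of all genes tested was 0.04 and 0.01. Of the box H/ACA genes *Dkc1* was then still called against siBard1 (−0.61, adjusted p = 0.00297), and none was called against siWdr5 (adjusted p from 0.113 to 0.246). Without siBrca1 replicate 1 more genes were called in both comparisons. Against siBard1, 12 were called without siBard1 replicate 1 and 0 without siBard1 replicate 2, and against siWdr5, 1 was called without siWdr5 replicate 1 and 0 without siWdr5 replicate 2. Neither comparison had a call when the moderation had no trend.

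In the nt control the genes also fell with time. From day 3 to day 6, 34 of the 51 fell and 4 rose, where 27.1% of all genes tested fell and 19% rose. The median log2 fold change was −0.64, against −0.07 over all genes. Of the called genes 32 were called under each of 13 alternatives other than the fold change limit, and 13 fell more than 2-fold. No share over all genes is given for this 2-fold count. The summed level went from 10460 and 10530 CPM to 7831 and 8109 CPM. *Tcof1* fell the most, from 214 and 237 to 89.2 and 102 CPM (−1.24, SE 0.13, adjusted p = 5.87e-06). *Nolc1* went from 264 and 286 to 113 and 125 CPM (−1.21, adjusted p = 8.69e-06) and *Gar1* from 34.6 and 36.9 to 16.1 and 15.1 CPM (−1.19, adjusted p = 2.35e-05).

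*Nat10* (45.2 and 56.3 CPM at day 6, −1.18, adjusted p = 5.41e-06) and *Polr1b* (48.0 and 52.5 CPM, −1.18, adjusted p = 5.36e-06) completed the 5 largest falls. By role, 5 of 6 genes of RNA polymerase I, 12 of 16 of small subunit assembly, 9 of 15 of large subunit assembly, 4 of 5 of the nucleolar proteins, and both polyamine genes fell. Of the snoRNP genes, 1 of 4 in box C/D (*Fbl*, −0.68, adjusted p = 0.000619) and 1 of 3 in box H/ACA (*Gar1*) fell. These counts were not tested against each other, and 27.1% of all genes fell. The 4 that rose were *Nip7*, a factor of large subunit maturation (73.2 and 70.9 to 123 and 114 CPM, 0.72, adjusted p = 0.000226), *Npm1* (1483 and 1402 to 1983 and 1922 CPM, 0.44, adjusted p = 0.0142), *Nop58* (207 and 203 to 269 and 267 CPM, 0.39, adjusted p = 0.017) and *Polr1c* (97.8 and 102 to 125 and 119.9 CPM, 0.30, adjusted p = 0.0453). *Nip7* was called under each of those 13 alternatives. *Nop58*, *Npm1* and *Polr1c* lost the call when some libraries were left out, with adjusted p of up to 0.0857, 0.1001 and 0.182.

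Partners within a complex moved apart with time, with *Nop58* higher and *Fbl* lower, and *Polr1c* higher and *Polr1b* lower. Genes with a longer coding sequence had the lower fold changes. Across the 51 genes, Spearman's rho between the longest annotated coding length and the fold change was −0.51, and it was −0.29 across 12600 coding genes tested, as a description, since genes are not independent replicates and share the libraries. Of the 17 longest genes (2196 to 8367 bases) 15 fell and none rose (median −0.94). Of the 17 shortest (459 to 1383 bases) 9 fell and 3 rose (median −0.49), and of the 17 between them 10 fell and 1 rose (median −0.40). At day 3 the same rho was 0.31 for siWdr5 and for siBrca1 and 0.12 for siBard1, and at day 6 it was 0.45, 0.29 and 0.30. The part of transcript length in the time course was not tested.

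**Figure D4:**
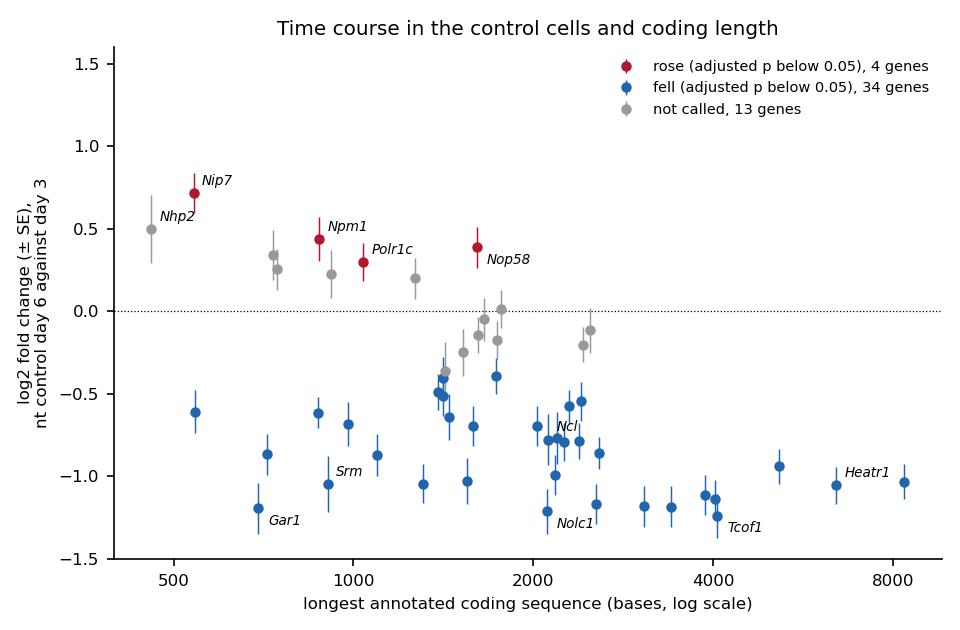
Log2 fold change between day 3 and day 6 in nt control cells (points, ± SE of the model) against the longest annotated coding sequence in bases (log axis), for the 51 genes. The 4 genes that rose lie among the shorter genes, and none of the 17 genes of 2196 bases or more rose.

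At day 6 few of the genes were called in any knockdown. In siBrca1 and siBard1 no gene of the 51 was called by limma or by limma-voom, with 2 and 11 at an unadjusted p below 0.05, where 0% and 0.0784% of all genes tested were called. The medians were 0.02 in siBrca1 and 0.20 in siBard1, against 0.03 and 0.06 over all genes, and after quantile normalization they were −0.07 and 0.08. The summed level of the 51 genes was 7831 and 8109 CPM in the nt control, 8296 and 8415 CPM in siBrca1, and 8781 and 9038 CPM in siBard1. *Polr1b* had 48.0 and 52.5 CPM in the nt control, 55.5 and 54.8 CPM in siWdr5, 45.7 and 50.0 CPM in siBrca1 and 58.6 and 59.8 CPM in siBard1, and *Dkc1* had 130.3 and 133 CPM in the nt control, 124 and 106 CPM in siWdr5, 139 and 149 CPM in siBrca1 and 148 and 168 CPM in siBard1. In both genes the siBrca1 libraries lay among or near the controls, where at day 3 they had been the lowest. The targeted transcripts did not pass the test at day 6 either.

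In siWdr5 at day 6, 6 genes rose and 3 fell as deposited, where 16.1% of all genes tested rose and 5.7% fell. The share of biogenesis genes that rose was thus below that of all genes, and the share that fell was about the same. After centring every library on its median 3 rose and 4 fell, and after quantile normalization 1 rose and 9 fell. The balance of directions therefore depended on the scaling. The median was 0.12, and −0.06 after quantile normalization. The genes that rose were *Bysl* (31.97 and 30.0 to 45.1 and 46.2 CPM, 0.56, adjusted p = 0.0112), *Polr1a* (96.7 and 102 to 137 and 137 CPM, 0.46, adjusted p = 0.0144), *Nop14* (0.45, adjusted p = 0.0196), *Rrp12* (0.40, adjusted p = 0.0323), *Utp20* (0.39, adjusted p = 0.0374) and *Mybbp1a* (0.39, adjusted p = 0.0449). Those that fell were *Nop58* (269 and 267 to 189 and 170.0 CPM, −0.58, adjusted p = 0.0104), *Utp18* (−0.49, adjusted p = 0.0368) and *Nip7* (123 and 114 to 91.9 and 86.1 CPM, −0.41, adjusted p = 0.0393). None of the 9 was called under all 14 alternatives. The count was 0 without either nt control library or without siWdr5 replicate 2, and 5 without siWdr5 replicate 1. *Nip7* and *Nop58* had risen with time in the control, and *Nop58* was lower in siWdr5 than in the control at both days.

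Whether the change differed between the days was tested in 1 model of all 16 libraries. In siBrca1 the difference (day 6 minus day 3) was called in 46 of 51 genes, all of them upward (10.3% of all genes tested, median 0.74 against 0.01), and in siWdr5 in 12, all upward (3.4%, median 0.47 against 0.12). In siBard1 none was called by limma or by limma-voom, where 0.0214% of all genes were called upward. The median was 0.60, against 0.07 over all genes, and 39 of 51 genes had an unadjusted p below 0.05. The share of all genes at that unadjusted level is not given here. The largest differences in siBrca1 were those of *Dkc1* (1.38, SE 0.20, adjusted p = 0.00207), *Nop58* (1.16, adjusted p = 0.0022) and *Nhp2* (1.11, adjusted p = 0.0152). Without siBrca1 day 3 replicate 2 these 3 differences were 1.13, 1.07 and 0.76. In siWdr5 the largest differences were those of *Nolc1* (0.78, adjusted p = 0.0391), *Tcof1* (0.76, adjusted p = 0.0389) and *Nat10* (0.76, adjusted p = 0.035). Without siBrca1 day 3 replicate 2 fewer genes were called in siBrca1, and the median was 0.60, against 0.02 over all genes. In siWdr5 the 12 calls became 0 with centred libraries, 1 after quantile normalization, 1 without nt control day 6 replicate 2 and 0 without any other of its 8 libraries, and 28 when only the libraries of the compared groups were used. In siBard1 30 were called with that restriction.

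Other genes of ribosome biogenesis, 119 tested genes outside the 51, were counted in the same way at day 3. In siWdr5 59 fell and 1 rose (median −0.35), where 16.8% of all genes fell. In siBrca1 96 fell and 1 rose (median −0.59, against 21.8% of all genes), and without its replicate 2 88 fell and 1 rose (median −0.50). In siBard1 22 fell and none rose (median −0.28, against 5.87%). The gene that rose, *Riok3*, is a kinase of late small subunit assembly and was named after its values were seen (0.37 in siWdr5 and 0.64 in siBrca1). In the nt control from day 3 to day 6, 62 fell and 16 rose (median −0.36). At day 6, 9 rose and 10 fell in siWdr5, and none was called in siBrca1 or siBard1 by limma, with 3 and 16 at an unadjusted p below 0.05. The 86 genes of cytosolic ribosomal proteins, the cargo of the pathway, gave other values. Between siBrca1 and siWdr5 directly, 41 of them were higher in siBrca1 and none lower. The share of all genes higher in siBrca1 is not given here. Without siBrca1 replicate 2 the median difference of these genes was 0.28, against 0.01 over all genes tested. In siWdr5 48 fell (median −0.43), but in siBrca1 5 fell (median −0.09; 3 without replicate 2, median −0.10) and in siBard1 5 (median −0.23), and none rose in any of the 3. With time in the nt control 56 rose and none fell (median 0.72), while 34 of the 51 biogenesis genes fell.

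*Myc*, counted with the cassette, had 628 and 647 CPM in the nt control, 412 and 408 CPM in siWdr5, 351 and 264 CPM in siBrca1 and 400.2 and 277 CPM in siBard1. It was lower in every knockdown library than in both controls, with changes of −0.64 (adjusted p = 0.00783) in siWdr5, −1.07 (adjusted p = 0.000145) in siBrca1 and −0.94 (adjusted p = 0.00239) in siBard1, and in the nt control it fell to 305 and 391 CPM at day 6 (−0.89, adjusted p = 0.0026). *Mycn* fell in siBrca1 (−1.53, adjusted p = 0.000584) and rose with time in the control (1.44, adjusted p = 0.000865). Of the 11 genes of the Myc network, 1 fell and 1 rose in siWdr5, 2 fell and 2 rose in siBrca1 (2 and 1 without its replicate 2), and 1 fell in siBard1. Without that library *Myc* changed by −0.86 in siBrca1. Of 8 genes of the stress and p53 response, 3 rose in siWdr5, 5 rose and 1 fell (*Trp53*, −0.46) in siBrca1 (4 and 0 without its replicate 2), and 1 rose in siBard1. Of 8 further polyamine genes, 2 rose and 3 fell in siWdr5, 2 rose and 2 fell in siBrca1, and in siBard1 none was called by limma, with 1 at an unadjusted p below 0.05. *Mdm2*, a p53 target that binds proteins of the ribosome, rose in each knockdown (0.54, 0.83 and 0.55). The part of *Myc* in the levels of the 51 genes was not tested.

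Markers of cell state moved beside these results. Of 16 cell division genes, 14 fell in siWdr5, 16 in siBrca1 and 1 in siBard1 at day 3 (medians −0.75, −1.35 and −0.36). Without siBrca1 replicate 2, 16 fell in siBrca1 (median −0.87). Their summed level was 2601 to 2613 CPM in the nt control, 1576 to 1719 CPM in siWdr5, 832 to 1511 CPM in siBrca1 and 2048 to 2099 CPM in siBard1. Of 8 fibroblast markers, 7 rose in siWdr5, 5 rose and 1 fell in siBrca1, and 1 fell in siBard1. They summed to 6966 to 7965 CPM in the nt control, 12390 to 12779 CPM in siWdr5, 11063 to 11969 CPM in siBrca1 and 8971 to 10435 CPM in siBard1. In the nt control at day 6 they summed to 3958 to 4292 CPM, but the markers did not move together with time. *Col1a1* (3312 and 4043 to 1048 and 1016 CPM), *Col1a2*, *Pdgfrb* and *Vim* were lower at day 6. *Dcn* (31.7 and 30.4 to 301 and 291 CPM), *Lum*, *Pdgfra* and *Thy1* were higher. Of 6 epithelial and early reprogramming markers, 4 fell in siWdr5, 3 fell and 1 rose in siBrca1, 1 fell in siBard1, and all 6 rose with time in the nt control. They summed to 50.2 to 73.2 CPM in the nt control at day 3, 21.6 to 47.9 CPM in the knockdowns, and 551 to 738 CPM in the nt control at day 6. The macrophage markers summed to 7.24 to 8.20 CPM in the nt control at day 3, 11.9 to 14.3 CPM in siWdr5, 16.7 to 17.9 CPM in siBrca1 (2 of 3 tested rose) and 8.11 to 8.95 CPM in siBard1. The neural markers summed to 49.5 to 56.4 CPM in the nt control, 72.6 to 74.5 CPM in siWdr5, 21.3 to 31.3 CPM in siBrca1 and 34.1 to 41.1 CPM in siBard1. The endothelial markers summed to 41.4 to 42.4, 52.8 to 59.6, 24.9 to 43.3 and 41.0 to 48.9 CPM in the same order, and erythroid markers were not analysed here. The part of proliferation and of cell state in the levels of the biogenesis genes was not tested.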

How the data were processed

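Libraries were made from rRNA-depleted RNA with the Kapa HyperPrep RiboErase kit and sequenced as paired ends on a NextSeq. The authors aligned reads with STAR 2.5.2b to mm10 and deposited log2 CPM values from edgeR 3.20.9, as the submitters' processing notes and the methods give it. The read counter, its use of strand and the annotation are not given in the sources used here. Each deposited value was a whole number of reads after the library size and the added prior reads (1.57 to 3.57) were undone, for 100% of values within 0.1 of a read. The recovered totals were 11169738 to 26832534 reads, and 3 reads were worth 0.115 to 0.260 CPM.

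The 14028 of 18990 genes whose log2 CPM averaged 0 or more were tested with limma 3.58.1 in R 4.3.3 (1 mean per group, trend on expression, two-sided, Benjamini-Hochberg, called at an adjusted p below 0.05). Each day was fitted with its 8 libraries, and the time course and the differences between days with all 16. CPM values are 2 to the power of the deposited value and contain the prior. Counts of rises at day 3, of changes over 2-fold and at an unadjusted p below 0.05 are given without the share of all genes. The scripts were tested on simulated data. The alternatives were no filter, a stricter filter of 2, a pseudocount of 1 CPM, no trend, other sets of libraries, centred or quantile normalized libraries, limma-voom on the recovered reads, a replicate block, a fold change over 2, and leaving out each library. Counts of the other gene lists, and of 2-fold changes, without siBrca1 day 3 replicate 2 were added after seeing the data.

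The 51 genes and the gene lists were chosen with earlier results of these data known. Named with values were 16 genes of central function, the 5 largest called rises and falls in each comparison of a knockdown with the nt control and in the time course, and called genes that moved against the majority. Others were named after their values were seen, where a count was small or a pattern singled them out. Gene models and coding lengths (the longest annotated coding sequence) are from GENCODE vM21, and promoters from RefSeq (GRCm38.p6).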

Additional observations from a re-analysis of the deposited data

Results flagged for a closer look

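The change against the nt control differed between day 3 and day 6, by the test of the difference itself in a model of all 16 libraries. In siBrca1 46 of the 51 genes differed, each with a higher value at day 6. Among them the log2 difference was 0.60 for *Polr1a*, 0.83 for *Polr1b*, 0.52 for *Ubtf* and 0.82 for *Tcof1*. It was 0.78 for *Fbl*, 0.77 for *Nop56*, 1.16 for *Nop58* and 1.38 for *Dkc1*. It was 0.71 for *Heatr1*, 0.64 for *Utp20*, 0.88 for *Ncl* and 0.97 for *Npm1*, and 0.81 for *Srm* and 0.45 for *Odc1*. Without siBrca1 day 3 replicate 2 each of these differences was smaller, from 0.36 for *Odc1* to 1.13 for *Dkc1*. *Polr1a*, *Ubtf*, *Fbl*, *Utp20*, *Ncl*, *Srm* and *Odc1* then lost the call.

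In siWdr5 12 genes differed between the days, and among them were *Polr1a* (0.65), *Polr1b* (0.68), *Ubtf* (0.60) and *Tcof1* (0.76). That count fell to 0 or 1 whenever 1 of the 8 libraries of these groups was left out.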

How the results depend on the processing

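A fold change over 2 besides the adjusted p left 0 genes in siWdr5, 5 in siBrca1 and 0 in siBard1 at day 3, 0 in siWdr5 at day 6, 13 in the time course, 0 and 5 in the differences between days of siWdr5 and siBrca1, and 0 between siBrca1 and either other knockdown. Without a trend 18 genes were called in siWdr5 and 1 in siBard1 at day 3, 4 in siWdr5 at day 6, 0 in the siWdr5 difference between days, and 0 between siBrca1 and siWdr5 or siBard1. Without a filter 7 were called in siBard1, 3 between siBrca1 and siWdr5, and 14 between siBrca1 and siBard1. With only the libraries of the compared groups, the differences between days had 28 calls in siWdr5 and 30 in siBard1, and siBrca1 against siWdr5 had 2, siBrca1 against siBard1 7, and siWdr5 against siBard1 5. The cause was not tested.

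Centring every library gave 7 calls in siWdr5 at day 6 (3 up, 4 down), 0 in its difference between days (median 0.33) and 28 between siBrca1 and siWdr5. Quantile normalization gave 10 calls in siWdr5 at day 6 (1 up, 9 down, median −0.0588), medians of −0.0682 in siBrca1 and 0.0751 in siBard1 at day 6, −0.47 in the time course and 0.49 in the siBard1 difference between days, 1 call in the siWdr5 difference (median 0.35), and 2 between siWdr5 and siBard1. The median of all genes in the siWdr5 difference was 0.12 as deposited, −0.02 when centred and 0.04 after quantile normalization.

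Leaving out 1 library gave 9 to 20 calls in siWdr5, 45 to 49 in siBrca1 (median −0.85 to −0.60) and 1 to 16 in siBard1 at day 3, and 0 to 5 in siWdr5 at day 6. It gave 33 to 36 in the time course, 0 to 1 and 20 to 49 (median 0.60 to 0.89) in the differences between days of siWdr5 and siBrca1, 0 to 39 between siBrca1 and siWdr5 (median −0.52 to −0.23), and 0 to 41 between siBrca1 and siBard1 (median −0.51 to −0.14).

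Groups share replicate numbers, but deviations of libraries with the same number had a mean correlation of 0.02 at day 3 (−0.09 to 0.07) and 0.11 at day 6 (−0.07 to 0.26), so the pairing was not established. With the replicate block 31 genes were called in siWdr5, 49 in siBrca1 and 27 in siBard1 at day 3, 9 in siWdr5 at day 6 and 40 in the time course, and the siBard1 difference between days went from 0 to 10.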
